A study of Homo sapiens with 8 samples.

Results

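The ERK pathway feedback genes are genes whose transcription is switched on by ERK signalling and whose products, for the most part, hold that signalling back. The 10 genes DUSP4, DUSP5, DUSP6, SPRY2, SPRY4, SPRED1, SPRED2, ETV4, ETV5 and PHLDA1 were taken by name from a table of 25369 genes. All 10 passed the filter on low counts, as did 14570 genes in all. Their mRNA was measured by RNA-seq in LX-2, a human hepatic stellate cell line that was immortalized; stellate cells lay down scar matrix in the fibrotic liver. The cells, of wild-type genotype per the labels, were seeded on polyacrylamide gels coated with fibronectin, either soft, at 2 kPa, or stiff, at 40 kPa, and collected on day 2 or day 4. Each of the 4 conditions had 2 libraries, described by the study as separate experiments, so 8 libraries in all were compared. No group received a drug, and all of the cells came from a single line, so the spread between libraries is that between cultures and not between donors.

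In the ERK pathway, a growth factor activates a receptor tyrosine kinase, adaptors load RAS with GTP, and RAS passes the signal through RAF and MEK to the ERK kinases. ERK then raises transcription of its own inhibitors, so their mRNA is often read as a sign of recent pathway output, while the kinase activity itself is not seen in RNA. In stellate cells the pathway is known for carrying the mitogenic signal of platelet-derived growth factor. The study asked how matrix stiffness reaches transcription, with ERK among the signalling routes, which is the question these mRNA levels bear on. By protein staining it reported relatively more phosphorylated ERK in the nucleus on the stiff matrix. It also reported less phosphorylated JUN after ERK was inhibited. Those are measures of protein, which the mRNA levels do not repeat.

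DUSP4 and DUSP5 encode nuclear phosphatases that remove phosphate from ERK, and DUSP6 encodes the cytoplasmic phosphatase of the same family. SPRY2 and SPRY4 encode Sprouty proteins, which act between the receptor and RAF. SPRED1 and SPRED2 encode Sprouty-related proteins, which bring the RAS inactivator neurofibromin to the membrane. ETV4 and ETV5 are ETS transcription factors of the PEA3 group, which carry ERK output further into transcription rather than blocking it. PHLDA1 encodes a pleckstrin homology-like domain protein that growth factors induce. On GRCh37, DUSP5 lies at chr10:112257665-112271291, SPRED1 at chr15:38545037-38649450, SPRED2 at chr2:65537985-65659771, SPRY2 at chr13:80910111-80915261 and SPRY4 at chr5:141689992-141706020. DUSP6 lies at chr12:89741012-89746278, PHLDA1 at chr12:76419227-76425556, ETV4 at chr17:41605212-41656988 and ETV5 at chr3:185764103-185828107. Counts were made per gene, and 4 of the members share exonic sequence with another gene: ETV4 with DHX8, PHLDA1 with PHLDA1-AS1 and DUSP6 with ENSG00000274021 on the opposite strand, and ETV5 with DGKG on its own strand. Because the strand setting of the counting was not given, the values of these 4 genes are uncertain to the extent that shared reads were counted.

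RefSeq promoter windows, which run from 250 bases before to 50 bases after a start site on GRCh38.p14, were found for DUSP6, SPRY2, SPRY4, SPRED1, SPRED2 and PHLDA1, 6 of the 10 genes, in 9 windows. They were searched on both strands for 3 motifs of factors through which growth factor signals reach promoters: the ETS core CCGGAA, the AP-1 motif TGANTCA and the CRE motif TGACGTCA. An ETS match stood at -142 in the first window of SPRY2 and at -89 in that of PHLDA1, and 17.2% of all 35116 windows hold one. AP-1 matches stood at -6 and +35 in the second window of SPRED2, against 7.71% of windows with one. No CRE match was found in these windows, and 1.85% of windows hold one. The upstream parts with a match are printed here, with the match in capitals, together with that of SPRED1, which changed most in the cells and in whose window none of the 3 motifs was found. The SPRED2 stretch runs 1 base past the start site to keep its match whole, and the PHLDA1 match is in the reverse orientation. In order they are chr13:80341127-80341376 (minus strand), chr12:76031777-76032026 (minus strand), chr2:65366778-65367028 (minus strand) and chr15:38252586-38252835 (plus strand).
SPRY2: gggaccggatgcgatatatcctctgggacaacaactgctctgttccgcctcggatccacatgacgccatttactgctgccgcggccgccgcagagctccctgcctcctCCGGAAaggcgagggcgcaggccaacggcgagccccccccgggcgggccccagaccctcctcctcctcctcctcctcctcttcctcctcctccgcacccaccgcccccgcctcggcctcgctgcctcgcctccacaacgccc
PHLDA1: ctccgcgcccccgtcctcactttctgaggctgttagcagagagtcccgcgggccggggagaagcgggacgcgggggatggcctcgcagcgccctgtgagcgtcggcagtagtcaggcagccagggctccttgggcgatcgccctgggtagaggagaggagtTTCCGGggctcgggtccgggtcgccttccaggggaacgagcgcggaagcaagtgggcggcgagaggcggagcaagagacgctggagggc
SPRED2: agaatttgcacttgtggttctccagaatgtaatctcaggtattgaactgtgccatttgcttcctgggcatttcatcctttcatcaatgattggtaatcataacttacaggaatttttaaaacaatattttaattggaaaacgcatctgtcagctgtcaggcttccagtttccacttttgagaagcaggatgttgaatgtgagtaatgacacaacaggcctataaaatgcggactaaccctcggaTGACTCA
SPRED1: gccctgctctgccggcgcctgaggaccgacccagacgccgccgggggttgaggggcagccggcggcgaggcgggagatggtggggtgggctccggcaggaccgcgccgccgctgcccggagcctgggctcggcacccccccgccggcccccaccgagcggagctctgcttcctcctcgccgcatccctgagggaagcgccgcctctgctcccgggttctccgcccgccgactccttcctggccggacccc

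CPM are counts relative to the total of the library, scaled by the TMM method. The libraries held between 19955975 and 27263935 counts. The 2 libraries of the stiff matrix at day 4 stood apart from each other: over all genes tested, the median absolute difference between replicates was 0.47 on the log2 CPM scale there, against 0.14 for the soft and 0.09 for the stiff matrix at day 2 and 0.21 for the soft matrix at day 4. Of 10 stellate markers, 8 were expressed, led by VIM and COL1A1, while DES and LRAT, which mark quiescent or classical stellate cells, had at most 2 counts in any library. The summed stellate markers were at 3261 to 3568 CPM (soft, day 2), 3917 to 4150 (stiff, day 2), 5354 to 5933 (soft, day 4) and 5346 to 7941 (stiff, day 4). Most of that sum was VIM, at 1966 to 6360 CPM over the libraries, so it does not show that the markers moved together. COL1A1 was highest in a soft day 2 library, at 1021 CPM. Its lowest value over the 8 libraries was 504 CPM, in a stiff day 4 library. The 5 hepatocyte markers had at most 8 counts in any library, and the endothelial markers summed to at most 1.30 CPM. The biliary markers, carried by SOX9 and KRT7, summed to 32.2 to 37 CPM on soft and 33.3 to 35.6 on stiff at day 2, and to 63.2 to 71.2 and 50.7 to 60.4 at day 4. The leukocyte markers summed to 89.8 to 126.8 CPM, nearly all of it from CD68, and the defining leukocyte gene PTPRC reached at most 2.89 CPM. Their part in the changes over time given here was not tested.

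Levels are compared between genes in FPKM, the deposited values per length. The members lay between 3.28 and 25.2 FPKM in single libraries, from counts of 353 to 4047, and 7 of the 10 had a median above 6.87 FPKM, the median over the genes tested. PHLDA1 was the highest in every condition, at 23.6 ± 0.57 FPKM (mean ± SD, n = 2) on soft and 25.1 ± 0.13 on stiff at day 2, and at 23.9 ± 0.75 on soft and 18.9 ± 0.41 on stiff at day 4. DUSP4 was the lowest in every condition, with means of 3.37 to 3.78 FPKM. Neither shared its range with a neighbour in the order.

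On the soft matrix at day 2 the order below PHLDA1 was DUSP5 (12.8 FPKM), SPRY2 (12.4), ETV5 (10.3), DUSP6 (9.39), ETV4 (8.29), SPRY4 (6.99), SPRED2 (6.22), SPRED1 (5.002) and DUSP4 (3.49), and no neighbours overlapped. On the stiff matrix at day 2, SPRY4 (9.30 FPKM), ETV4 (9.28) and DUSP6 (9.22) overlapped in sequence, as did DUSP5 with SPRY2 and SPRED2 with SPRED1. At day 4 the order had changed on both matrices: ETV5 stood second, with 13.8 FPKM on soft and 14.5 on stiff, and SPRED1 had moved from the ninth place to the sixth, with 10.7 and 11.2 FPKM. SPRY4 had moved down to the ninth place, with 5.32 and 5.49 FPKM. On soft at day 4, ETV5 overlapped DUSP5 and DUSP6 overlapped SPRED1. On both matrices at day 4, ETV4 overlapped SPRED2, and SPRED2 overlapped SPRY4. On the stiff matrix at day 4 all neighbours from the second to the sixth place (ETV5, DUSP5, SPRY2, DUSP6, SPRED1) overlapped. Their order there is thus not resolved.

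**Figure D1:**
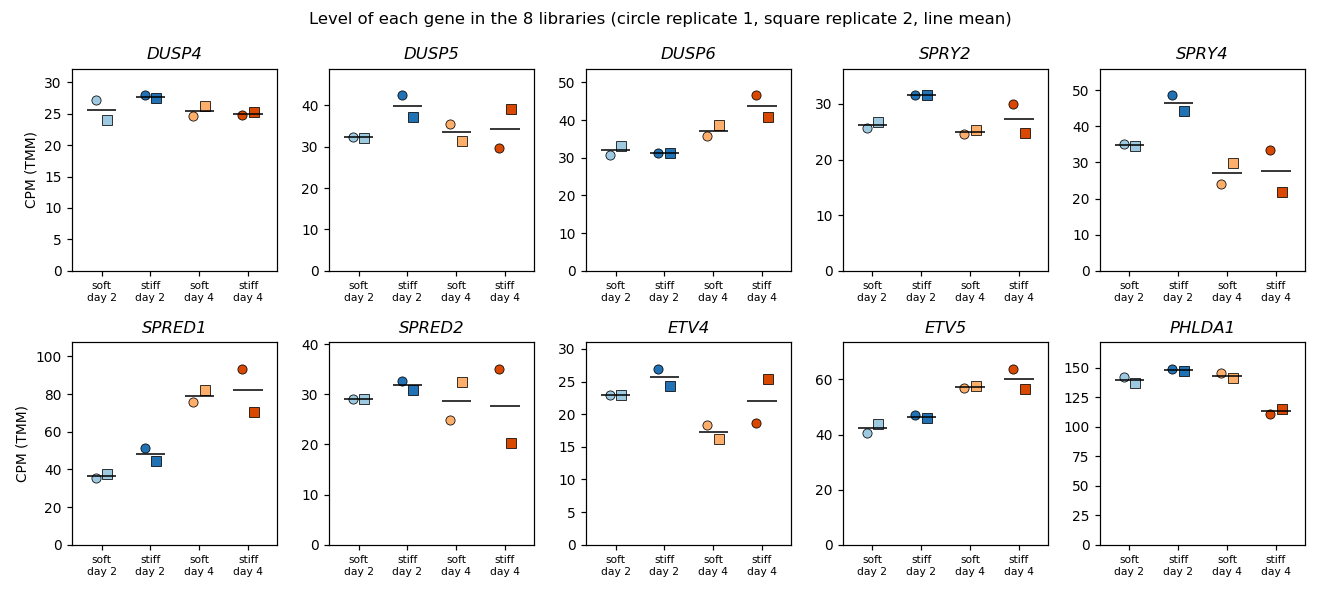
Level of each of the 10 genes in every library, in CPM scaled by TMM (y axis from 0, its own scale per gene), by matrix and day. Circles are replicate 1, squares replicate 2 and lines the mean. SPRED1 rises from 36.3 CPM on soft at day 2 to 78.8 at day 4, and the stiff day 4 pair is wide in SPRED2 (35.1 and 20.3 CPM).

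The stiff matrix was first compared with the soft matrix at day 2. None of the 10 genes was called by edgeR's quasi-likelihood test at a Benjamini-Hochberg adjusted p under 0.05, and the background was 0%, since no gene of 14570 was called. The estimates were small and, with 1 exception, higher on stiff: 9 of 10 were positive, the median was 0.15 on the log2 scale and the range -0.03 to 0.41, while the median over all genes tested was 0.01. In 9 of 10 genes both stiff libraries lay above both soft libraries. Of all genes tested, 25.7% did so, and 48.2% did not overlap in either direction. In bulk RNA, fewer cells expressing a gene and less of its RNA per cell cannot be told apart. The replicates of day 2 were close to each other, with a median gap over the 10 genes of 0.06 log2 CPM on each matrix.

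SPRY4 had the largest estimate at day 2. Its CPM values were 35.2 and 34.7 on soft and 48.7 and 44.2 on stiff, a log2 fold change of 0.41 (95% interval -0.08 to 0.91). SPRED1 was measured at 35.2 and 37.5 CPM on soft and at 51.5 and 44.4 CPM on stiff, a log2 fold change of 0.40 (0.01 to 0.79). It was the only member under an unadjusted p of 0.05, with an adjusted p of 0.9999 by edgeR, where 2.82% of all genes were under that limit. In both genes the higher pair was on stiff and the pairs were apart.

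DUSP5 followed, with 32.5 and 32.2 CPM on soft and 42.5 and 37.2 on stiff (log2 fold change 0.30, -0.09 to 0.69). SPRY2 was at 25.7 and 26.8 CPM on soft and at 31.6 in both stiff libraries (0.27, -0.06 to 0.59). Both pairs of libraries were apart in each of these genes, but the intervals reach 0. The other genes were closer still: the log2 fold change was 0.16 in ETV4, 0.14 in ETV5, 0.13 in SPRED2, 0.11 in DUSP4 and 0.08 in PHLDA1. DUSP6, the ERK-specific phosphatase, had 30.8 and 33.1 CPM on soft and 31.3 in both stiff libraries, a log2 fold change of -0.03 (-0.34 to 0.28), and was the only member whose groups overlapped. The upper ends of the intervals ran from 0.28 in DUSP6 to 0.91 in SPRY4 on the log2 scale.

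The call at day 2 depended on which libraries gave the estimate of the spread. With only the 4 libraries of day 2 in the fit, SPRY4 (adjusted p = 0.00463) and SPRED1 (adjusted p = 0.00727) were called by edgeR as higher on stiff, and 667 of 14290 genes were called with them. DESeq2 called none of the members, where 0.192% of the genes with an adjusted p were called.

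At day 4 the same comparison gave 0 of 10 genes called by edgeR, against 0.247% of all genes (36 genes). Of the estimates, 7 were positive, with a median of 0.05 and a range of -0.34 to 0.35 on the log2 scale, against a median of 0.02 over all genes. The groups did not overlap in 3 members, of which ETV4 and DUSP6 were higher and PHLDA1 lower on stiff. Over all genes, 25.7% did not overlap in either direction and 11.7% were higher on stiff. At an unadjusted p under 0.05 there was 1 member, PHLDA1, where 6.93% of all genes were under it. DESeq2 called none of the members at day 4 either, while 1.05% of the genes with an adjusted p were called.

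PHLDA1 was at 145.1 and 140.9 CPM on soft and at 110.9 and 115.1 CPM on stiff. That was a log2 fold change of -0.34 (-0.61 to -0.07, adjusted p = 0.527 by edgeR), with the stiff pair below the soft pair by more than the spread within either. ETV4 was at 18.4 and 16.2 CPM on soft and at 18.7 and 25.4 on stiff (0.35, -0.06 to 0.76). The lower stiff library of ETV4 lay just above the higher soft one. DUSP6 was at 35.8 and 38.6 CPM on soft and at 46.7 and 40.8 on stiff (0.23, -0.08 to 0.54), again with pairs that were apart.

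For the other 7 genes the soft and stiff libraries overlapped at day 4. SPRED1, for example, had 75.6 and 82.0 CPM on soft and 93.4 and 70.7 on stiff, with the stiff libraries on either side of the soft pair and a log2 fold change of 0.06 (-0.33 to 0.45). SPRED2 had 24.8 and 32.5 CPM on soft and 35.1 and 20.3 on stiff, the widest interval of all (-0.63 to 0.54). The stiff libraries of day 4 were the least alike. The median gap between that pair over the 10 genes was 0.34 log2 CPM, against 0.11 in the soft pair of day 4. The gap was largest in SPRED2 (0.78) and SPRY4 (0.62), followed by ETV4 (0.44), SPRED1 and DUSP5 (0.40 each), and small in PHLDA1 (0.05) and DUSP4 (0.02). Replicate 2 was lower than replicate 1 in 6 of the genes and higher in DUSP4, DUSP5, ETV4 and PHLDA1. Without stiff replicate 1 the counts called at day 4 went from 0 to 2, namely ETV4 (higher) and SPRED2 (lower), while 4676 of 15021 genes were called. Leaving out stiff replicate 2 turned SPRED2 to 0.30 and gave 0 members called.

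**Figure D2:**
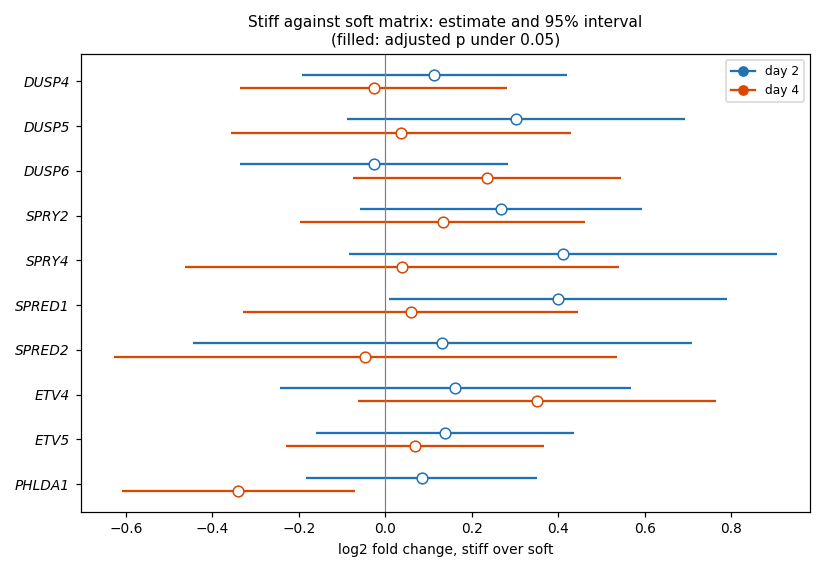
Log2 fold change of the 10 genes on stiff over soft matrix (x axis), at day 2 and day 4, with the 95% interval from edgeR as a line. All points are open, since no member passed the adjusted p of 0.05, and at day 2 all but DUSP6 (-0.03) lie right of 0.

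**Figure D3:**
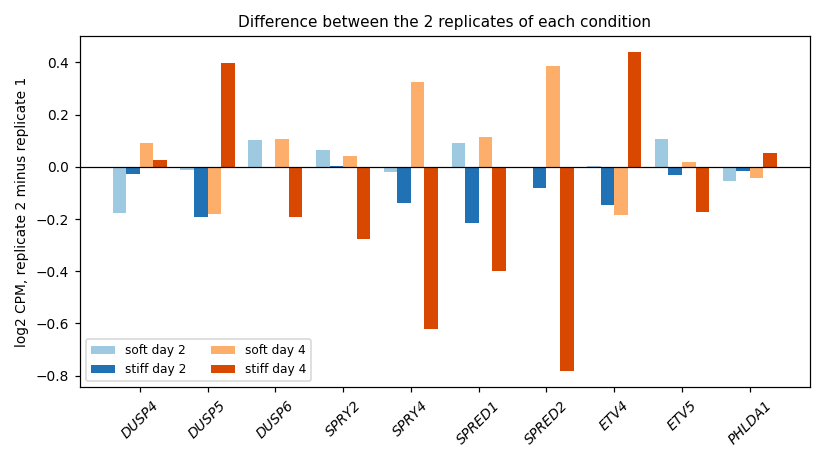
Difference between replicate 2 and replicate 1 in log2 CPM (y axis) for each gene (x axis), with 1 bar per condition. The bars of the stiff matrix at day 4 reach -0.78 in SPRED2 and -0.62 in SPRY4, while no bar of day 2 exceeds 0.22 in size.

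Averaged over both days, 0 of 10 genes were called between the matrices by edgeR, against 0.426% of all genes, and none was under an unadjusted p of 0.05, against 7.7%. The estimates were positive in 9 of 10 genes, against 54.7% of all genes, and the median was 0.14, against 0.02 over all genes. They were led by ETV4 (0.26, -0.03 to 0.55), SPRED1 (0.23, -0.05 to 0.50) and SPRY4 (0.22, -0.13 to 0.58), and PHLDA1 was at -0.13 (-0.32 to 0.06). Leaving out stiff day 4 replicate 2 called 2 genes, SPRY4 and SPRED1, beside 1025 of 15014 genes in all, and leaving out its replicate 1 called ETV4 alone, beside 2968 of 15021.

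The change of the matrix effect from day 2 to day 4 was then tested as an interaction. No member was called, and the background was 0% of all genes by edgeR. The estimate was negative in 8 of 10 genes, with a median of -0.16, and positive in DUSP6 (0.26, -0.18 to 0.70) and ETV4 (0.19, -0.39 to 0.77). Over all genes tested, 50.7% of the estimates were positive, with a median of 0.005. PHLDA1 was the only member under an unadjusted p of 0.05, at -0.42 (-0.80 to -0.05, adjusted p = 0.9997 by edgeR), and 1.95% of all genes were under that limit. Its levels were close on both matrices at day 2, with 142.5 and 137.2 CPM on soft and 149.0 and 147.5 on stiff, and apart at day 4. Without stiff day 4 replicate 1 the interaction called 3 genes, SPRY4, SPRED1 and SPRED2, all negative, among 3139 genes called in all.

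Time in culture was the larger difference. From day 2 to day 4, 27.4% of all genes were called on soft and 27.6% on stiff by edgeR, so a member called over time is no exception among genes. On soft, 2 of 10 members rose and 0 fell, against 14.1% and 13.3% of all genes. On stiff, 2 rose and 2 fell, against 14% and 13.7% of all genes. Libraries of the 2 days did not overlap in 6 members on soft and 7 on stiff, where 75.3% and 62.7% of all genes did not. Next to these shares, neither count sets the members apart from genes at large. The calls also moved with single libraries. On soft, SPRED1 alone was called without any 1 of soft day 2 replicate 2, the stiff day 2 libraries and the soft day 4 libraries, none without soft day 2 replicate 1, and SPRY4 and ETV4 (both lower) were called besides SPRED1 and ETV5 without either stiff day 4 library. On stiff, SPRED1 alone was called without any 1 of the soft libraries, none without either stiff day 2 library, 6 without stiff day 4 replicate 1 and 7 without its replicate 2, where SPRED1, DUSP6, SPRY4 and PHLDA1 were among both the 6 and the 7. These fits also moved the calls over all genes: 7826 of 15021 were called on stiff without stiff day 4 replicate 1 and 6569 of 15014 without its replicate 2, but 861 of 14988 and 470 of 14967 without stiff day 2 replicate 1 and 2. On soft, 7941 and 7918 genes were called without stiff day 4 replicate 1 and 2, and 347 of 14980 without soft day 2 replicate 1.

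SPRED1, which restrains RAS, changed most. On the soft matrix it went from 35.2 and 37.5 CPM at day 2 to 75.6 and 82.0 CPM at day 4, a 2.17-fold rise (log2 fold change 1.12 ± 0.17 SE, adjusted p = 0.00451 by edgeR). On the stiff matrix it went from 51.5 and 44.4 CPM to 93.4 and 70.7 CPM, a 1.71-fold rise (0.78 ± 0.17, adjusted p = 0.0146). All 4 libraries of day 4 lay above all 4 of day 2. The rises on the 2 matrices were not shown to differ, since the interaction was -0.34 (-0.89 to 0.21). SPRED2, the other Sprouty-related gene, moved on neither matrix beyond its spread: its log2 fold change over time was -0.02 (-0.59 to 0.56) on soft and -0.19 (-0.78 to 0.39) on stiff. On stiff, the rise of SPRED1 was not called when only the libraries of that matrix were fitted (adjusted p = 0.0981 by edgeR) or without either day 2 library (0.0727 and 0.148). On soft, it was not called without day 2 replicate 1 (0.0687).

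Among the Sprouty genes, SPRY4 fell on the stiff matrix. There it went from 48.7 and 44.2 CPM to 33.5 and 21.8 CPM, a log2 fold change of -0.75 ± 0.22 (adjusted p = 0.0378 by edgeR), with both libraries of day 4 below both of day 2. On soft it was at 35.2 and 34.7 CPM at day 2 and at 23.9 and 30.0 CPM at day 4, a difference of -0.37 ± 0.22 on the log2 scale that was not called (adjusted p = 0.229). SPRY2 was not called, at -0.07 (-0.40 to 0.25) on soft and -0.21 (-0.54 to 0.12) on stiff. On each matrix both of its day 4 libraries lay below both of day 2. The call of SPRY4 on stiff was lost in 9 of 19 alternatives, 6 of them fits without 1 library, and among the others with the stiff libraries alone (adjusted p = 0.137 by edgeR) and by limma on FPKM without a filter (0.0693).

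Of the phosphatase genes among the 10 members, DUSP6 alone was called over time. On stiff it rose from 31.3 CPM in both libraries to 46.7 and 40.8 CPM (0.48 ± 0.13, adjusted p = 0.0333 by edgeR). On soft it was at 30.8 and 33.1 CPM and then at 35.8 and 38.6 CPM, a log2 fold change of 0.22 ± 0.13 that was not called (adjusted p = 0.251). Day 4 was above day 2 on both matrices, and the call on stiff was lost in 10 of 19 alternatives, 6 of them fits without 1 library, and among the others without scaling factors (adjusted p = 0.147), without the filter on low counts (0.0544) and with the stiff libraries alone (0.148). The nuclear phosphatases gave no call: DUSP4 was at -0.01 (-0.32 to 0.30) on soft and -0.15 (-0.46 to 0.16) on stiff, and DUSP5 at 0.05 (-0.34 to 0.44) and -0.22 (-0.61 to 0.18).

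The PEA3 factors had estimates of opposite sign. ETV5 rose on soft from 40.7 and 43.8 CPM to 57.1 and 57.8 CPM (0.44 ± 0.13, adjusted p = 0.0387 by edgeR). On stiff it went from 47.0 and 46.0 CPM to 63.8 and 56.6 CPM, with a log2 fold change of 0.37 ± 0.13 that missed the threshold (adjusted p = 0.0661). The estimates on the 2 matrices were near each other, with an interaction of -0.07 (-0.49 to 0.35). ETV4 was lower at day 4 on soft, at 22.9 and 23.0 and then 18.4 and 16.2 CPM, but this was not called (-0.41 ± 0.18, adjusted p = 0.125), and on stiff it was at -0.22 ± 0.18. ETV5 on soft was not called in 9 of 19 alternatives, among them without scaling factors (adjusted p = 0.126 by edgeR) and without the filter (0.0647).

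PHLDA1 fell on the stiff matrix, from 149.0 and 147.5 CPM to 110.9 and 115.1 CPM (-0.39 ± 0.12, adjusted p = 0.0407 by edgeR). On soft it stayed within its spread, with 142.5 and 137.2 CPM at day 2 and 145.1 and 140.9 CPM at day 4 (0.03, -0.24 to 0.30). The 4 stiff libraries were thus in 2 separate pairs and the 4 soft libraries overlapped. The call on stiff was lost in 9 of 19 alternatives, among them without the filter (adjusted p = 0.0576 by edgeR) and with the stiff libraries alone (0.189). The matrix and time comparisons share libraries, so the values of PHLDA1 on stiff at day 4 enter both its time and its matrix estimate.

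**Figure D4:**
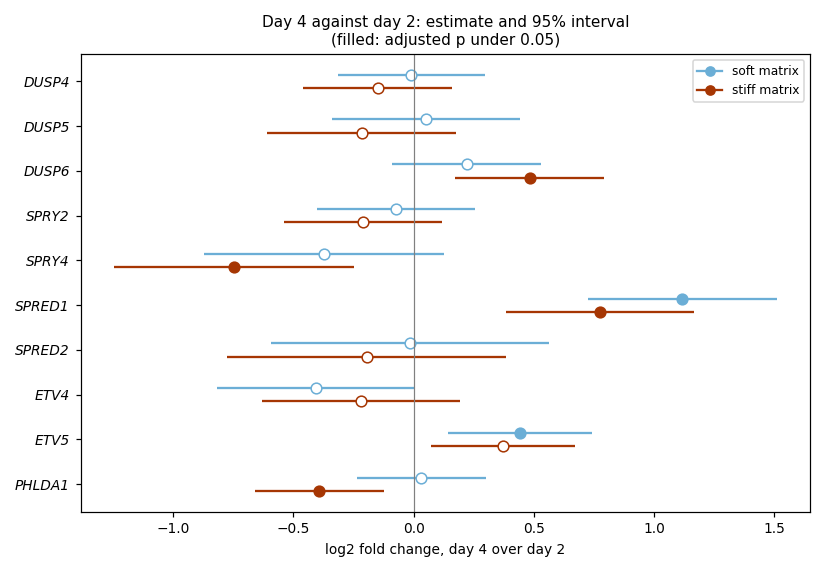
Log2 fold change of the 10 genes at day 4 over day 2 (x axis) on the soft and the stiff matrix, with the 95% interval from edgeR; filled points passed an adjusted p of 0.05. SPRED1 is filled on both matrices (1.12 and 0.78), ETV5 on soft (0.44), and DUSP6 (0.48), SPRY4 (-0.75) and PHLDA1 (-0.39) on stiff.

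The 10 genes did not move as 1 group. On the soft matrix 5 estimates over time were positive, with a median of 0.01, and on stiff 3 were positive, with a median of -0.20, against medians of 0.02 and 0.03 over all genes. The distance between the patterns of 2 genes was measured as the root mean square difference of their mean-centred log2 CPM over the 8 libraries. DUSP6 and ETV5 were each the nearest member of the other, at 0.09. SPRED1 had the widest range of condition means, 1.16 log2 CPM, and its nearest member, ETV5, was at 0.29. SPRY4 stood nearly as far from the rest, with SPRED2 nearest at 0.25. Over all genes tested, the 5 nearest to SPRED1 were LCP1, STK17B, TAF13, G3BP1 and the RAS gene NRAS, at 0.07 to 0.09 over 8 libraries. These 8 libraries are the ones the contrasts use, and the likeness is a description only.

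Other genes of the pathway were counted in 6 lists by role, 72 genes in all, of which 63 were tested. Between the matrices, 0 of the 63 were called at day 2, and 1, FOS, was called at day 4 and on average. At an unadjusted p under 0.05 there were 5 of the 63 at day 2 and 18 at day 4, 13 higher and 5 lower on stiff, where 2.82% and 6.93% of all genes were under it. Over time, 9 of the 63 rose and 6 fell on soft, where 14.1% of all genes rose and 13.3% fell. On stiff, 13 rose and 12 fell, where 14% of all genes rose and 13.7% fell. The counts of the single lists stand beside the same shares. The medians over the 63 genes on the log2 scale were 0.09 and 0.03 between the matrices at day 2 and day 4, and -0.08 and -0.06 over time on soft and stiff.

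Of 12 growth factor ligands tested, 6 rose and 0 fell over time on each matrix, with a median log2 fold change of 0.90 on soft and 0.71 on stiff. Over all genes, 14.1% rose and 13.3% fell on soft, and 14% rose and 13.7% fell on stiff. NRG1, a ligand of the ERBB receptors, went from 15.8 ± 1.8 to 30.2 ± 2.7 CPM (mean ± SD, n = 2) on soft and from 15.4 ± 1.1 to 47.4 ± 2.7 on stiff (log2 fold change 0.93 and 1.63, adjusted p = 0.00547 and 0.00140 by edgeR). FGF1 rose 2.40-fold and 2.74-fold, PDGFC, a ligand of the PDGF receptors, 2.09-fold and 1.60-fold, and FGF5 1.82-fold and 2.14-fold on soft and stiff. The others called were AREG on both, EGF on soft and HBEGF on stiff, named after their values were seen. No ligand was called between the matrices, with a smallest adjusted p by edgeR of 0.226 at day 4 and 0.114 averaged over days. At an unadjusted p under 0.05 there were 6 of the 12 at day 4, 5 higher and 1 lower on stiff, against 6.93% of all genes.

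Of 10 receptors tested, 3 fell and 1 rose over time on soft, and 4 fell and 2 rose on stiff. Of all genes, 13.3% fell and 14.1% rose on soft, and 13.7% fell and 14% rose on stiff. EGFR, the receptor of epidermal growth factor, was at 75.7 and 74.7 CPM on soft and 90.4 and 87.1 on stiff at day 2. At day 4 it was at 13.9 and 25.2 CPM on soft and 37.3 and 8.12 on stiff. All day 4 libraries of EGFR were below all day 2 libraries, and the log2 fold changes were -1.95 ± 0.59 and -1.96 ± 0.59 (adjusted p = 0.0428 and 0.0419 by edgeR). On stiff, the log2 fold change of EGFR was -3.45 without stiff day 4 replicate 1 and -1.26 without its replicate 2. The call was lost in 10 of 19 alternatives on each matrix. FGFR3 and FGFR4 also fell on both matrices, FGFR3 by 1.13 on the log2 scale on each. KIT, the stem cell factor receptor, rose on both matrices from a low level, at 2.07-fold and 1.88-fold, though its call on stiff was lost in 14 of 17 alternatives. ERBB3, an ERBB receptor that binds NRG1, rose on stiff from a low level, with means of 1.09 and 2.87 CPM (2.62-fold). Its call there was lost in 3 of 17 alternatives. FGFR1, named after its values were seen, fell on stiff. PDGFRB, the PDGF receptor of stellate cells, was at 22.8 ± 2.6 CPM on soft and 16.5 ± 1.5 on stiff at day 2, and at 20.8 ± 3.9 and 13.2 ± 3.2 at day 4. It was not called in any comparison, with an adjusted p of 0.493 between matrices at day 4.

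In the core cascade, the RAS gene NRAS rose 2.27-fold on soft and 1.78-fold on stiff. The kinase MAP2K1 (MEK1) fell on both, to 0.746 and 0.752 of its day 2 level, and BRAF fell on soft (-1.02 ± 0.30 on the log2 scale). The call of BRAF on soft was lost in 10 of 19 alternatives. That of MAP2K1 was lost in 7 of 19 on soft and 9 of 19 on stiff. MAPK3, which encodes an ERK kinase, gave no call in any comparison and had means of 77.3 to 83.6 CPM over the 4 conditions. On stiff, the 95% interval of its log2 fold change over time ran from -0.39 to 0.32. Among 10 adaptors and RAS regulators, RASA1, a RAS GTPase activator, fell on stiff (-0.74 ± 0.21) and none was called on soft. The call of RASA1 was lost in 8 of 19 alternatives. Its estimate was -1.09 without stiff day 4 replicate 1 and -0.47 without its replicate 2.

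Of 11 other feedback regulators tested, none was called on soft, and on stiff 1 rose and 3 fell over time. Called over all genes were 27.4% on soft and 27.6% on stiff. DUSP14 rose from 93.5 ± 3.9 to 138.3 ± 8.1 CPM, DUSP10 went from 63.7 ± 7.5 to 46.3 ± 3.1, DUSP7 from 53.1 ± 0.30 to 38.3 ± 2.8 and IL17RD, an inhibitor of FGF signalling, from 5.35 ± 0.04 to 3.45 ± 0.01. The falls were lost in 11 of 19 alternatives for DUSP10, 8 of 19 for DUSP7 and 10 of 17 for IL17RD, and the rise of DUSP14 in 3 of 19. As with the 10 members, the list had calls over time in both directions on stiff and none between the matrices. At day 4, 5 of the 11 were under an unadjusted p of 0.05 between the matrices, 3 higher and 2 lower on stiff. Over all genes that share was 6.93%, and the smallest adjusted p of the list was 0.0775 by edgeR. DUSP10 was then at 81.0 ± 0.67 CPM on soft and 46.3 ± 3.1 on stiff. DUSP1, named after its values were seen, was at 105.9 ± 2.2 and 198.2 ± 7.1.

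Of 10 other genes that ERK induces, 1 fell over time on soft, and 2 rose and 3 fell on stiff. Among all genes, 13.3% fell on soft, and 14% rose and 13.7% fell on stiff. Between the matrices at day 4, 5 of the 10 were under an unadjusted p of 0.05, 4 higher and 1 lower on stiff. Over all genes that share was 6.93%. FOS, an AP-1 subunit and immediate early gene, was at 2.29 and 2.45 CPM on soft and 2.77 and 2.60 on stiff at day 2, then at 2.80 and 3.25 on soft and 13.0 and 12.3 on stiff at day 4. The stiff pair of day 4 was far above the other 6 libraries, a 4.17-fold difference from soft (2.06 ± 0.18, adjusted p = 0.0106 by edgeR) and a 4.69-fold rise over time (adjusted p = 0.00123). The matrix call of FOS at day 4 was lost in 5 of 19 alternatives, with adjusted p from 0.0899 to 0.285, and that on average in 7 of 18. EGR1, another immediate early gene, was at 45.5 and 41.3 CPM on soft and 87.3 and 87.4 on stiff at day 4 (1.01 ± 0.16, adjusted p = 0.0664, not called), and rose over time on stiff (1.36 ± 0.16, adjusted p = 0.00217). FOSL1 fell on both matrices, from 525.3 ± 11.8 to 290.0 ± 7.1 CPM on soft and from 577.8 ± 10.1 to 319.2 ± 6.8 on stiff. ETV1, the third PEA3 factor, fell on stiff (-0.78 ± 0.24), as did EPHA2, which was named after its values were seen. The call of ETV1 was lost in 8 of 17 alternatives. On the stiff matrix FOS, EGR1, SPRED1 and DUSP6 thus rose over time, while FOSL1, PHLDA1 and SPRY4 fell.

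**Figure D5:**
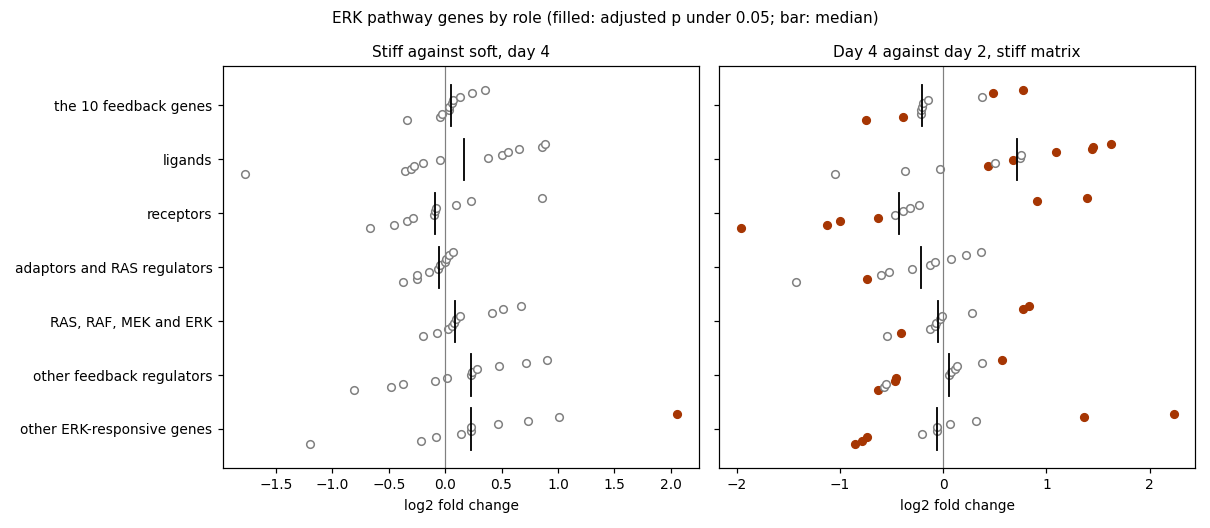
Log2 fold change (x axis) of the 10 feedback genes and of the tested genes of the 6 pathway lists (rows), for stiff against soft at day 4 (left) and day 4 against day 2 on stiff (right). Each point is a gene, filled where the adjusted p was under 0.05, and the bar is the median. On the left FOS alone is filled, at 2.06, and on the right the ligands have a median of 0.71.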

How the data were processed

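Per the labels and the methods, the authors trimmed reads with Trim Galore, mapped them to hg19 with STAR 2.7.1a and deposited counts per gene made with htseq-count. The annotation and strand setting were not given in the sources used here. The authors also deposited FPKM, and the ratios of counts to FPKM showed them to be scaled by median-of-ratios size factors. The labels and the paper name different sequencers for the libraries.

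From the counts, edgeR 4.0.16 (R 4.3.3) was run: filterByExpr by condition, TMM (factors 0.870 to 1.08), and a quasi-likelihood fit of 4 conditions over 8 libraries with no block, as the study's methods state none. A gene counted as called where its p, adjusted by Benjamini-Hochberg over 14570 genes, was under 0.05. Standard errors are the log2 fold change over the square root of F. Reported CPM are TMM-scaled. With 2 libraries per condition the spread was shared over all conditions, and the part of it due to counting error was not estimated for single genes. The study used DESeq2, which was run as an alternative (1.42.0), beside limma 3.58.1 on log2(FPKM + 1), for genes of at least 1 FPKM in at least 2 libraries, and on log2(FPKM + 0.1), other scalings, filters, separate fits, a replicate block and each library left out. The crossed pairing was added after the data were seen. Positions came from GENCODE on GRCh37 and promoters from RefSeq on GRCh38.p14.

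The members and lists were chosen with earlier results of these data known. Named were all members, up to 4 called genes per list by unadjusted p, the genes MAPK3, EGFR, PDGFRB, EGR1 and FOS, and the 5 genes nearest to the member with the widest range. Some genes that the rule names are not reported here. No set test was run.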

Additional observations from a re-analysis of the deposited data

How the results depend on the processing

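Replicate numbers did not pair the libraries: same-numbered libraries correlated in their deviations at -0.04 (day 2), -0.49 (day 4), 0.08 (soft) and 0.02 (stiff). Of the 6 counts of called genes, the block on the replicate number moved both counts over time to 1 (SPRED1), with 2626 and 2543 of all genes called on soft and stiff, and left the other 4 at 0. A crossed pairing, added after the data were seen, gave 2 on soft and 4 on stiff. Alternatives that moved a count by over 1.5 times were: at day 2 between matrices, 2 with only the libraries compared (667 of 14290 genes in all); over time on soft (2 called), 1 without scaling factors, 1 without the filter and 4 with only the libraries compared (7261 of 14331 genes called in all); and over time on stiff (4 called), 2 without the filter and 0 with only the libraries compared (0 of 14069 genes in all). The fit of the compared libraries alone was not run for the average and the interaction. DESeq2 and limma on log2(FPKM + 1) with the filter called 0, 0 and 0 between matrices, 2 on soft and 4 on stiff.

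Leaving out 1 library at a time gave 0 to 0 called at day 2, 0 to 2 at day 4, 0 to 2 on average, 0 to 4 over time on soft, 0 to 7 on stiff and 0 to 3 for the interaction. The condition with 1 library left is then assumed to vary like the others. Counts of 4 on soft came without either stiff day 4 library, and on stiff, 6 came without its replicate 1 and 7 without its replicate 2, in fits that called between 6569 and 7941 genes of all tested. Without any single soft library the count on stiff was 1, and without either stiff day 2 library it was 0.

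Signs turned in estimates that were not called. With 1 library left out, DUSP6 at day 2 ran from -0.077 to 0.027. At day 4 between matrices the ranges were -0.061 to 0.020 (DUSP4), -0.17 to 0.23 (DUSP5), -0.0043 to 0.27 (SPRY2), -0.30 to 0.32 (SPRY4), -0.15 to 0.25 (SPRED1), -0.48 to 0.30 (SPRED2) and -0.012 to 0.16 (ETV5), and SPRED2 ran from -0.18 to 0.21 on average. Over time on soft they were -0.095 to 0.081 (DUSP4), -0.071 to 0.14 (DUSP5), -0.22 to 0.14 (SPRED2) and -0.017 to 0.058 (PHLDA1), and on stiff -0.64 to 0.14 (SPRED2). For the interaction they were -0.27 to 0.015 (SPRY2), -0.61 to 0.18 (SPRED2), -0.029 to 0.41 (ETV4) and -0.15 to 0.034 (ETV5). Without scaling factors, which moved the median of all genes over time on stiff to -0.10, the estimates became -0.094 (DUSP5), -0.064 (SPRY4), -0.049 (SPRED1) and -0.045 (ETV5) at day 4, -0.049 (DUSP4) and -0.040 (SPRED2) on average, and -0.027 (DUSP5) and -0.045 (PHLDA1) over time on soft. The cause was not tested. With 2 libraries per condition, the 95% intervals limit what could be resolved.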
